A study of Mus musculus with 6 samples.

Results

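Cd163 and 9 further genes that mark tissue macrophages were described in RNA-seq of the whole small intestine. The 10 genes are Cd163, Mrc1, Adgre1, Csf1r, Cd68, Lyz2, Tyrobp, C1qa, C1qb and C1qc, and each was found once by its symbol among the 55487 genes of the expression table. They were chosen because, in these same libraries, Cd163 was higher in DTR while Lyz2 and Tyrobp were lower, so their differences between the groups are given as a description without a test. The series has 2 groups of 3 libraries each, wild-type (WT) and Lgr5-2A-DTR (DTR). In DTR mice, the diphtheria toxin receptor was placed at the locus of Lgr5 through a 2A peptide, so that toxin kills cells that use the Lgr5 gene. All mice were C57BL/6 adults over 8 weeks of age. Both groups, the wild-type controls included, received 20 µg of diphtheria toxin per kg daily for 4 days, and tissue was taken 6 h after the last dose. Whether every library came from its own mouse is not stated, so the spread between libraries may be technical.

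Macrophages of the gut wall lie beneath the epithelium, in the muscle and around vessels and nerves, and many are replaced from blood monocytes. They need signals through the receptor encoded by Csf1r, clear dead cells and microbes, and make most of the complement component C1q in many tissues. CD163 takes up haemoglobin bound to haptoglobin, and in human monocytes its gene is known to be induced by glucocorticoids. In whole tissue a lower level of such a gene can mean fewer macrophages or less RNA of that gene in each. It can also come from other cells that express the gene, and these cannot be told apart here.

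RefSeq promoters (build GRCm38.p6, which has the coordinates of mm10) were at hand for 6 of the 10 genes. They were searched on both strands for GAGGAA, a core that the macrophage factor PU.1 binds, and for TGTTCT, a glucocorticoid receptor half-site. Over 32851 promoters of the same length, 28.3% held GAGGAA and 19.0% held TGTTCT. The promoters of Cd163, the gene that was higher in DTR, and of C1qb and C1qc, which were level between the groups, are shown 5′ to 3′ on the strand of the gene, with matches to either motif (GAGGAA reads TTCCTC and TGTTCT reads AGAACA on the other strand) in capitals. The Cd163 promoter (chr6:124304401-124304700, plus strand) held TGTTCT 2 times and GAGGAA 0 times.
Cd163: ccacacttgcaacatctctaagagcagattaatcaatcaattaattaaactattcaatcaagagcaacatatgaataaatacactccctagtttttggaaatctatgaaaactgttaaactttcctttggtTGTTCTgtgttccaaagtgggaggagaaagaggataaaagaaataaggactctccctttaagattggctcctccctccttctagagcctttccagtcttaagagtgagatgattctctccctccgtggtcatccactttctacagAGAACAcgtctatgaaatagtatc
The C1qb promoter (chr4:136886151-136886450, minus strand) held each motif 1 time.
C1qb: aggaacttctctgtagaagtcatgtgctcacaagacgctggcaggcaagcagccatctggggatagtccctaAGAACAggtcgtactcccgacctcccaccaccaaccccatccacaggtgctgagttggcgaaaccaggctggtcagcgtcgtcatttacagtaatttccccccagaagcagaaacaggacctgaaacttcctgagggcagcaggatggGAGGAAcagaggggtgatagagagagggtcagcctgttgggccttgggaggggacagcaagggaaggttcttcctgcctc
The C1qc promoter (chr4:136892865-136893164, minus strand) held GAGGAA 1 time and TGTTCT 2 times.
C1qc: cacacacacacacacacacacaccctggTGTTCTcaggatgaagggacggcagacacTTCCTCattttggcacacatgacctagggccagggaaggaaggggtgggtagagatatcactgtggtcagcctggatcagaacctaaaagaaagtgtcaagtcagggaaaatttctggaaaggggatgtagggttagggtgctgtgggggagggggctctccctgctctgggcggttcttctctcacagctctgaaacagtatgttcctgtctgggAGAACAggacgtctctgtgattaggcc
Of the other promoters, that of Mrc1 held GAGGAA 3 times, that of Cd68 held it 2 times, and that of Lyz2 held neither motif. A match is a run of letters and not a measured binding site, and both Cd163 and the level C1qc carried 2 half-sites.

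Lyz2, the lysozyme of macrophages and other myeloid cells, has a near copy, Lyz1, the lysozyme of Paneth cells, beside it on chromosome 10. Both coding sequences are 447 bases long in GENCODE M21 (mm10), and 425 of these bases are identical (95.1%). Of the 50-base stretches of the Lyz2 transcript, 195 of 1267 (15.4%) also occur in Lyz1, so reads from those stretches could have been placed on either gene. Lyz1 was the more abundant gene, so this share sets no limit on how much of the Lyz2 level could come from Lyz1 reads. The first 150 coding bases show how the genes differ, with the 14 differing bases in capitals.
Lyz2: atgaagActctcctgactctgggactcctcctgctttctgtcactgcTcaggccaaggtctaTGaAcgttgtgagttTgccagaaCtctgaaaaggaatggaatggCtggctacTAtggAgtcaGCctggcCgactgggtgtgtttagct
Lyz1: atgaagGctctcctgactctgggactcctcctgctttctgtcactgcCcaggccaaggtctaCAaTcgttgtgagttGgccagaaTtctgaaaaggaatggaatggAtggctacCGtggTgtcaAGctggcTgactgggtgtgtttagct

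Reads assigned to genes numbered between 61404574 and 76596766 per library. For Lgr5 itself, WT replicates 1, 2 and 3 held 315, 254 and 229 reads, and DTR replicates 1, 2 and 3 held 22, 0 and 34. The groups also differed in Xist, a transcript of the inactive X chromosome of females, with 16 to 38 reads in WT and 22432 to 24279 reads in DTR, and genotype and this sex pattern cannot be told apart in any value below. DTR replicate 2 stood apart in fat markers, with Adipoq at 12.7 RPKM against 0.15 to 3.02 RPKM in the other libraries. Levels are RPKM, reads scaled by gene length and by library size, so they can be compared between genes, and they are listed for replicates 1, 2 and 3 of each group in that order. Across all genes with a mean log2 RPKM above -2, limma called 18.3% of 15563 different between the groups at an adjusted p of 0.05, 9.54% higher and 8.74% lower in DTR. Groups without overlap were as common as 47.7% of these genes, with 25.1% higher and 22.6% lower in DTR.

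All 10 macrophage genes were above the expression filter, and they did not move as 1 block. In DTR, 1 gene (Cd163) lay above every WT library, 4 genes (Adgre1, Lyz2, Tyrobp and Cd68) lay below every WT library, and 5 genes (Mrc1, Csf1r, C1qa, C1qb and C1qc) overlapped with WT. The genes were chosen from this contrast, so nothing is read from these counts against the background above.

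**Figure D1:**
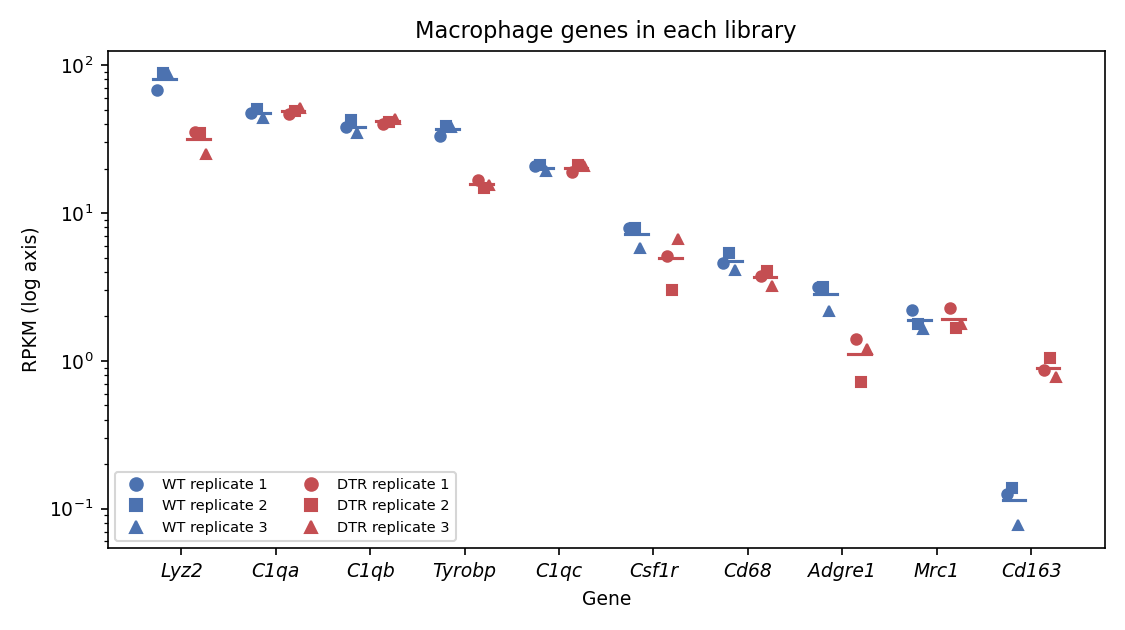
RPKM on a log axis of the 10 macrophage genes in each of the 6 libraries, blue for WT and red for DTR, with a marker shape for each replicate. The 3 DTR points of Cd163 lie between 0.781 and 1.04 RPKM, all above the WT points, while those of Adgre1, Lyz2, Tyrobp and Cd68 lie below WT and those of the C1q chains fall among the WT points.

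Csf1r encodes the receptor for CSF1 and IL-34, the growth factors that keep macrophages alive. Its level was 7.88, 7.91 and 5.77 RPKM in WT and 5.13, 3.03 and 6.67 RPKM in DTR. DTR replicate 3 lay inside the WT range and DTR replicate 2 was the lowest of the 6 libraries, so the groups overlapped. The WT mean of 7.19 ± 1.23 RPKM and the DTR mean of 4.94 ± 1.83 RPKM (SD, 3 libraries each) give a log2 difference of -0.60 (SE 0.31), which was -0.28 without DTR replicate 2. Exons of Csf1r share 873 bases with Hmgxb3 on the opposite strand, and reads in that stretch cannot be assigned with certainty because the sources used here do not state whether the counting used strand. Hmgxb3 had a WT mean of 1.23 ± 0.104 RPKM and a DTR mean of 1.28 ± 0.211 RPKM (SD, 3 libraries each).

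Adgre1 (chromosome 17, 57358691 to 57483527, plus strand in mm10) encodes F4/80, an adhesion-type receptor used as a marker of mouse macrophages. It stood at 3.18, 3.14 and 2.17 RPKM in WT and 1.40, 0.718 and 1.20 RPKM in DTR. All DTR libraries lay below all WT libraries, with DTR replicate 2 lowest again. The WT mean of 2.83 ± 0.572 RPKM was 2.56 times the DTR mean of 1.11 ± 0.351 RPKM (SD, 3 libraries each), a log2 difference of -1.39 (SE 0.31).

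Cd163 (chromosome 6, 124304656 to 124330527, plus strand) encodes the haemoglobin and haptoglobin scavenger receptor. It was the rarest of the 10 genes in WT, with 51, 46 and 32 reads, and had 307, 350 and 265 reads in DTR. As levels these are 0.126, 0.138 and 0.0773 RPKM in WT and 0.872, 1.04 and 0.781 RPKM in DTR. Each DTR library lay above each WT library. Cd163 was chosen for its higher level in DTR, so nothing is read from this gap. The means were 0.114 ± 0.0321 and 0.898 ± 0.132 RPKM (SD, 3 libraries each), a ratio of 7.90 and a log2 difference of 3.01 (SE 0.35). With its WT mean log2 RPKM of -3.17, Cd163 was above the expression filter through its DTR libraries alone. The size of the log2 difference depends on how low values are treated, at 2.23 with a pseudocount of 0.1 RPKM and 0.77 with a pseudocount of 1 RPKM.

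Mrc1 (chromosome 2, 14229392 to 14332057, plus strand) encodes the mannose receptor CD206, a second scavenger receptor that is also made by lymphatic and some other endothelial cells. Its level was 2.21, 1.78 and 1.63 RPKM in WT and 2.28, 1.66 and 1.78 RPKM in DTR. The values of both groups were interleaved. The means of 1.88 ± 0.302 and 1.91 ± 0.326 RPKM (SD, 3 libraries each) differed by 0.02 (SE 0.21) on the log2 scale.

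Tyrobp (chromosome 7, 30413760 to 30417585, plus strand) encodes DAP12, an adaptor with an ITAM that carries signals from receptors of myeloid and natural killer cells. It stood at 33.2, 39.1 and 38.4 RPKM in WT and 16.7, 14.8 and 15.5 RPKM in DTR. Each DTR library lay below each WT library. Tyrobp was chosen for its lower level in DTR, so nothing is read from this gap. The WT mean of 36.9 ± 3.19 RPKM was 2.36 times the DTR mean of 15.7 ± 0.942 RPKM (SD, 3 libraries each), a log2 difference of -1.23 (SE 0.12).

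Cd68 (chromosome 11, 69664213 to 69666153, minus strand) encodes a glycoprotein of lysosomes and endosomes. Levels were 4.59, 5.38 and 4.13 RPKM in WT and 3.74, 4.05 and 3.21 RPKM in DTR. Here the groups barely separated, with DTR replicate 2 just under WT replicate 3. The means were 4.70 ± 0.632 and 3.67 ± 0.420 RPKM (SD, 3 libraries each), a log2 difference of -0.36 (SE 0.17).

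Lyz2 (chromosome 10, 117277331 to 117282321, minus strand) was the most abundant of the 10 genes in WT, at 68.2, 88.0 and 86.9 RPKM, and stood at 35.4, 34.8 and 25.0 RPKM in DTR. Every DTR library had less than any WT library. The WT mean of 81.1 ± 11.1 RPKM was 2.55 times the DTR mean of 31.7 ± 5.87 RPKM (SD, 3 libraries each), a log2 difference of -1.36 (SE 0.19). Its near copy Lyz1 was at 696, 665 and 447 RPKM in WT and 122, 118 and 170 RPKM in DTR. Lyz1, which was not among the chosen genes, fell in DTR by 2.13 on the log2 scale (SE 0.23; limma adjusted p = 0.00737), a call that was lost when WT replicate 1 and DTR replicate 2 were left out together. The ratio of Lyz2 to Lyz1 was 0.142 ± 0.0488 in WT and 0.244 ± 0.0843 in DTR (SD, 3 libraries each), with overlap. How much of the Lyz2 difference comes from reads of Lyz1 was not tested.

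C1qa, C1qb and C1qc encode the chains of C1q, the molecule that starts the classical complement pathway. The genes lie together on chromosome 4, on the minus strand, C1qb at 136880129 to 136886187, C1qc at 136889804 to 136893065 and C1qa at 136895917 to 136898803. C1qa stood at 47.7, 50.5 and 44.0 RPKM in WT and 46.6, 48.7 and 51.2 RPKM in DTR. C1qb stood at 37.9, 42.3 and 34.8 RPKM in WT and 40.2, 41.2 and 43.5 RPKM in DTR. C1qc stood at 20.8, 21.0 and 19.1 RPKM in WT and 18.8, 21.2 and 20.8 RPKM in DTR. For all 3 chains the groups overlapped, and the highest library was only 1.12 to 1.25 times the lowest. The log2 differences were 0.04 (SE 0.11) for C1qa, 0.12 (SE 0.12) for C1qb and -0.0030 (SE 0.11) for C1qc. The signs of the C1qa and C1qc differences, like that of Mrc1, turned when single libraries were left out, so no direction is given for them.

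**Figure D2:**
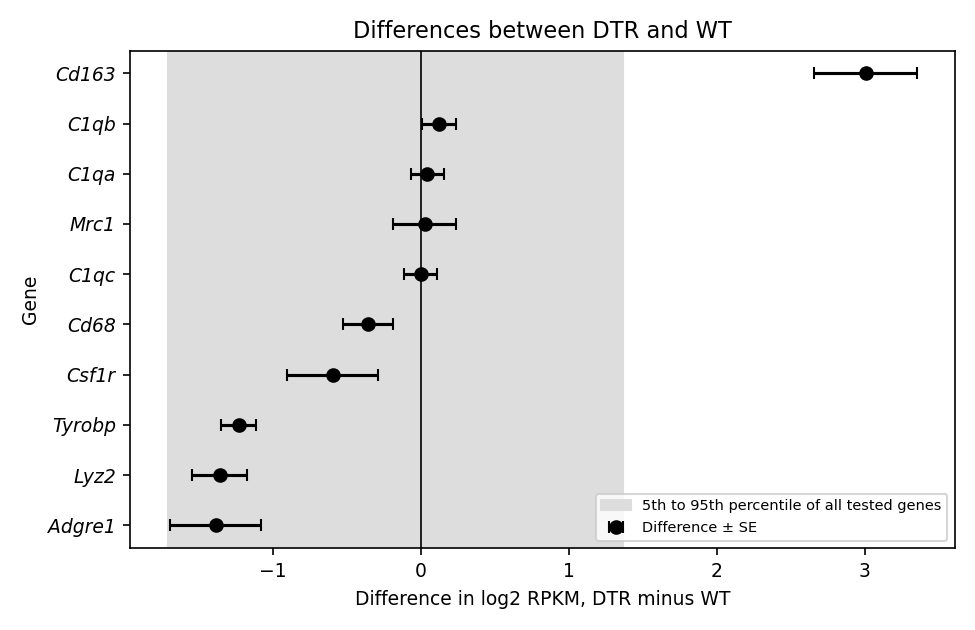
Fitted difference in log2 RPKM (DTR minus WT) of each of the 10 macrophage genes with its standard error, over a grey band that holds the 5th to the 95th percentile of all 15563 tested genes. Cd163 at 3.01 lies above the band, while the lowest genes, Adgre1, Lyz2 and Tyrobp, lie inside it, and the C1q chains and Mrc1 sit near 0. The genes were chosen from this contrast, so nothing is read from their places against the band. Cd163 was above the expression filter through DTR alone, and its difference was 0.77 with a pseudocount of 1 RPKM.

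The order of the genes by level differed between the groups. In WT it ran from Lyz2 through C1qa, C1qb, Tyrobp, C1qc, Csf1r, Cd68, Adgre1 and Mrc1 to Cd163. The neighbours C1qb and Tyrobp overlapped there, as did Adgre1 and Mrc1. In DTR it ran from C1qa through C1qb, Lyz2, C1qc, Tyrobp, Csf1r, Cd68, Mrc1 and Adgre1 to Cd163, and Csf1r overlapped with Cd68 and Adgre1 with Cd163. Lyz2 thus stood above C1qa and C1qb in WT and below both in DTR. Cd163, which was under Adgre1 in each WT library, reached 1.45 times the level of Adgre1 in DTR replicate 2.

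Ratios inside 1 library set these genes against each other without the total amount of tissue or reads. The C1q chains kept their proportions. C1qa was 1.24 ± 0.0395 times C1qb in WT and 1.17 ± 0.0129 times in DTR, and C1qc was 0.531 ± 0.0296 times C1qb in WT and 0.487 ± 0.0242 times in DTR (SD, 3 libraries each). For C1qa to C1qb every DTR value was under every WT value, although the means were only 1.06-fold apart. Tyrobp was close to level with C1qb in WT, at 0.877, 0.923 and 1.10 times, and stood at 0.415, 0.360 and 0.356 times in DTR. The Lyz2 to C1qb ratio went the same way, with a mean of 2.12 ± 0.350 in WT and 0.767 ± 0.168 in DTR. Adgre1 to C1qb stood at 0.0735 ± 0.0108 in WT and 0.0266 ± 0.00872 in DTR. Cd163 to C1qb was at 0.00293 ± 0.000621 in WT and 0.0216 ± 0.00366 in DTR, 7.37-fold higher. The groups did not overlap for Tyrobp, Lyz2, Adgre1 and Cd163 to C1qb, and they overlapped for C1qc to C1qb. Mrc1 to C1qb overlapped at 0.0491 ± 0.00840 and 0.0460 ± 0.00922 (SD, 3 libraries each). The choice of genes used the levels of Cd163, Lyz2 and Tyrobp, so nothing is read from the separation of their ratios.

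**Figure D3:**
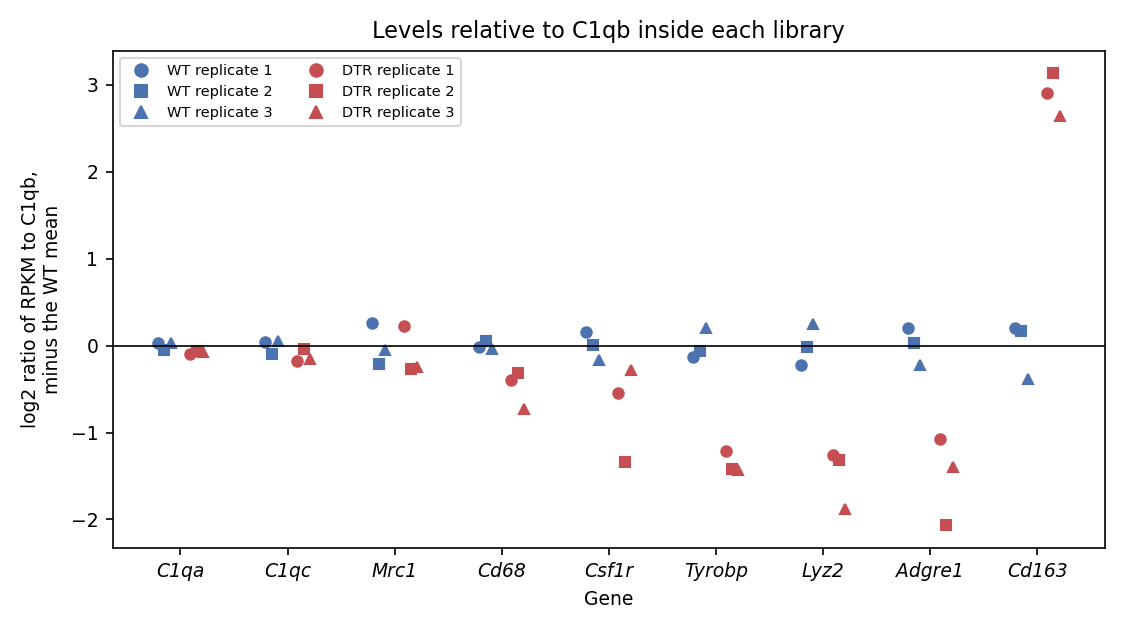
Log2 ratio of the RPKM of each other macrophage gene to that of C1qb in the same library, minus that gene's WT mean. The 3 WT libraries are blue and the 3 DTR libraries are red. Cd163 is higher in all 3 DTR libraries, Tyrobp, Lyz2, Adgre1, Csf1r and Cd68 are lower in all 3, C1qa is 1.06-fold lower by its means, and Mrc1 and C1qc overlap.

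Lyz2 and Tyrobp kept a similar proportion to each other, at 2.19 ± 0.119 in WT and 2.03 ± 0.377 in DTR with overlap (SD, 3 libraries each). Cd163 to Adgre1 stood at 0.0397 ± 0.00413 in WT and 0.908 ± 0.471 in DTR (SD, 3 libraries each). Against Csf1r, Cd163 stood at 0.0160, 0.0174 and 0.0134 in WT and 0.170, 0.344 and 0.117 in DTR. DTR replicate 2, with the most Cd163 and the least Csf1r and Adgre1, gave the highest of both ratios.

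Deviations of each library from its group mean, which the choice of genes did not use, were compared among the 10 genes as a description over 6 libraries. C1qa and C1qb deviated together (Pearson r = 0.96), C1qa and C1qc less so (r = 0.83), and C1qb and C1qc least among these chains (r = 0.71). Adgre1 went with Csf1r (r = 0.88) and with Mrc1 (r = 0.77), and Cd163 with Cd68 (r = 0.86). Cd163 also went with C1qa, C1qb and C1qc (r = 0.61, 0.66 and 0.67). Lyz2 and Csf1r tended to deviate in opposite directions (r = -0.64), but both were above their group means in WT replicate 2 and DTR replicate 1. These points share library depth and the makeup of each tissue piece.

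The 5 protein-coding genes whose log2 RPKM followed that of Cd163 most closely over the 6 libraries were Trim27 (r = 0.998), Mt2 (r = 0.996), Ddrgk1 (r = 0.994), 2310009B15Rik (r = 0.994) and Opn3 (r = 0.992), out of 10007 with a mean log2 RPKM above 0. The gap between the groups carries most of such a correlation, and 935 genes were above 0.9. For Csf1r, by deviations from the group means, the closest were Dus1l, Adsl and Wipi2 (r = 0.999 each), Farsa (r = 0.997) and Esrp2 (r = 0.996), and 544 of 10006 genes were above 0.9.

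The other genes of macrophage biology were grouped in 11 lists that leave out the 10 genes above. Of 148 distinct genes that were tested, 15 rose and 36 fell in DTR at a limma adjusted p of 0.05, against 9.54% and 8.74% of all tested genes. The lists were chosen with earlier results of these data known, so nothing is read from the counts against these shares. These counts rest on every WT library. Without WT replicate 1, 2 or 3 the genes that fell numbered 1, 2 and 3, and those that rose numbered 2, 3 and 2, while over all genes the calls dropped from 2845 to 152, 157 and 207. Without DTR replicate 3, 10 rose and 16 fell, and without DTR replicate 2 these counts were 11 and 24. Without DTR replicate 1, 22 rose and 44 fell. Of the 148 genes, 9 had a mean under the expression filter in 1 group and entered the test through the other, and 5 of these were called (Zbtb16, Lcn2, Ccl24, Ccl22 and Cd209a), so their calls support nothing and their values are given without a p. Among the other genes named from the lists, Fkbp5 kept its call in every setting that was tried, and all kept their direction.

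**Figure D4:**
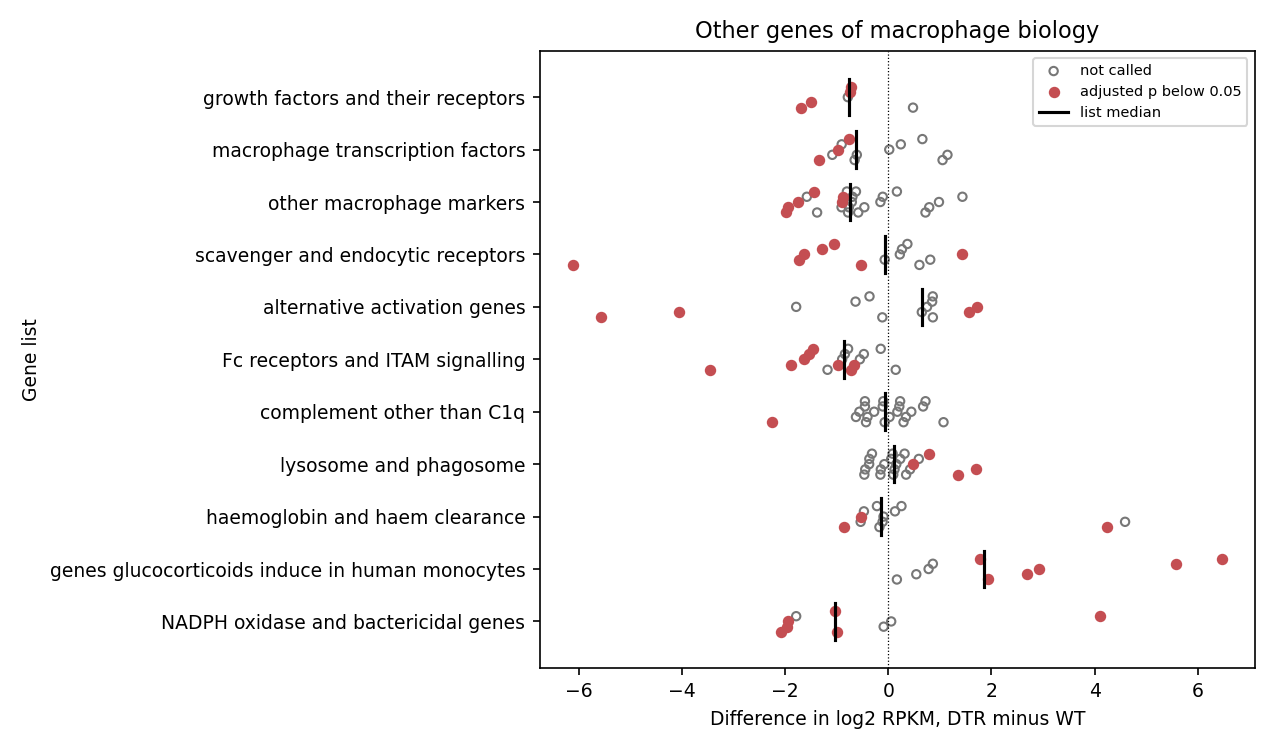
Difference in log2 RPKM (DTR minus WT) of each tested gene in the 11 lists of macrophage genes, filled where the limma adjusted p is under 0.05. Fc receptor and ITAM genes lie mostly below 0, with 8 of 16 called lower. Genes that glucocorticoids induce lie above 0, with 6 of 10 called higher. The 6 include Zbtb16, which entered the test through DTR alone.

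Of the growth factors and receptors of macrophages, 4 of 6 tested genes fell and 0 rose, with a median log2 difference of -0.76 against 0.03 for all tested genes. Csf1, the main ligand of the receptor encoded by Csf1r, stood at 1.96, 1.95 and 2.39 RPKM in WT and 0.834, 0.665 and 0.741 RPKM in DTR. It fell by 1.49 on the log2 scale (SE 0.20; limma adjusted p = 0.0117). Il34, the other ligand, fell less, from 2.93 ± 0.00927 to 1.78 ± 0.320 RPKM (SD, 3 libraries each; limma adjusted p = 0.0425). The ratio of Il34 to Csf1 was 1.41 ± 0.161 in WT and 2.40 ± 0.406 in DTR (SD, 3 libraries each), without overlap. Flt3l, the growth factor of dendritic cells, fell by 1.69, and Csf2ra, a chain of the GM-CSF receptor, fell by 0.74 on the log2 scale. None of these calls held without WT replicate 1, 2 or 3 (0 of the list each time), and those of Il34, Flt3l and Csf2ra were also lost without DTR replicate 3, that of Il34 also without DTR replicate 2.

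Among the transcription factors of macrophages, 3 of 12 tested genes fell and 0 rose (median -0.63). Maf, which acts in resident macrophages and also in T cells, fell from 28.1 ± 3.69 to 11.0 ± 1.24 RPKM (SD, 3 libraries each; limma adjusted p = 0.00737). Irf8, which acts in monocytes and dendritic cells, fell by 0.98 on the log2 scale. Spi1, which encodes PU.1, fell from 2.59 ± 0.376 to 1.51 ± 0.154 RPKM (SD, 3 libraries each; limma adjusted p = 0.0379). The calls of this list numbered 0, 1 and 1 without WT replicate 1, 2 or 3 in turn, and 2 without DTR replicate 2 or 3, while 4 genes rose and 4 fell without DTR replicate 1. The call of Maf was lost only without WT replicate 1, among the single libraries left out.

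Of 24 other macrophage markers, 6 fell and 0 rose (median -0.74). Aif1, which encodes the actin-binding protein IBA1, fell by 1.99 on the log2 scale (SE 0.33), from 5.68 ± 0.241 to 1.53 ± 0.725 RPKM (SD, 3 libraries each; limma adjusted p = 0.0176). Ms4a7, a membrane protein of macrophages, fell by 1.95. Hpgds, a prostaglandin D synthase, fell by 1.75, and Cd300lf, an inhibitory receptor, fell by 1.45. With a pseudocount of 1 RPKM, the differences of Ms4a7, Hpgds and Cd300lf were -1.04, -0.67 and -0.67. None of the 6 calls held without WT replicate 1, 2 or 3. The count was 4 and 3 when DTR replicates 2 and 3 were left out in turn, and 10 when DTR replicate 1 was.

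Of 13 tested scavenger and endocytic receptors other than Cd163 and Mrc1, 1 rose and 6 fell (median -0.07). The 6 include Cd209a, which entered the test through WT alone, so its call supports nothing. Lyve1, the hyaluronan receptor of lymphatic vessels and of a subset of macrophages, stood at 1.72, 1.29 and 1.83 RPKM in WT and 3.51, 5.72 and 3.94 RPKM in DTR. It rose by 1.43 on the log2 scale (SE 0.25; limma adjusted p = 0.0192). Clec7a, the beta-glucan receptor dectin-1, fell by 1.28, Msr1, a scavenger receptor for modified lipoproteins, by 1.05, the C-type lectin gene Cd209b by 1.64 and the broadly expressed Lrp1 by 0.53. No call of this list held without WT replicate 1, 2 or 3, 3 of the 6 lower calls were left without DTR replicate 2, and the call of Lyve1 alone was left without DTR replicate 3. Among lymphatic endothelial markers 2 of 6 tested genes rose (Lyve1 and Mmrn1) and 1 fell (Ccl21a), and their summed level was 14.9 to 15.4 RPKM in WT and 12.4 to 18.0 RPKM in DTR. These calls too were lost without WT replicate 1, 2 or 3, and 1 of the 2 higher calls was lost when DTR replicate 2 or 3 was left out. The part of lymphatic vessels in the values of Lyve1 and Mrc1 was not tested.

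In the list of alternative activation, the state that interleukin-4 drives, 2 of 13 genes were called higher and 2 lower (median 0.65). The 2 lower calls, those of Ccl24 and Ccl22, entered the test through WT alone and support nothing. Il4ra, a chain of the interleukin-4 receptor, rose by 1.57 and the transglutaminase Tgm2 by 1.71 on the log2 scale. Both genes are also expressed outside macrophages. The chemokine gene Ccl24 stood at 16.9, 6.32 and 3.64 RPKM in WT and 0.216, 0.314 and 0.0497 RPKM in DTR, a log2 difference of -5.57 (SE 0.82). Ccl22, a chemokine that dendritic cells also make, had a log2 difference of -4.06. With a pseudocount of 1 RPKM these were -2.83 and -0.92, and the DTR means of both genes were under the expression filter. Leaving out WT replicate 1 or 2 ended all 4 calls, WT replicate 3 left 1, DTR replicate 3 ended both calls that rose and DTR replicate 2 ended that of Tgm2.

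Fc receptors and ITAM signalling, the pathway that Tyrobp serves, had 8 of 16 tested genes lower and 0 higher (median -0.87). Clec4n, which encodes the fungal receptor dectin-2, fell by 1.88 on the log2 scale, and Hcst, which encodes the adaptor DAP10, by 0.97. Fcer1g, the adaptor most like Tyrobp in role, was lower by less than Tyrobp was, and fell from 23.1 ± 3.87 to 14.4 ± 0.452 RPKM (SD, 3 libraries each; limma adjusted p = 0.0312). The Tyrobp to Fcer1g ratio was 1.62 ± 0.179 in WT and 1.09 ± 0.0981 in DTR (SD, 3 libraries each), without overlap. The choice of genes used the lower Tyrobp level, so nothing is read from this separation. The count of 8 was 1 without WT replicate 1, 2 or 3, and 4 without DTR replicate 3.

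NADPH oxidase and bactericidal genes, the killing machinery that lysozyme belongs to, had 5 of 9 tested genes lower and 1 higher (median -1.03). Rac2, the small GTPase of the oxidase, fell by 1.96, and the subunit genes Ncf1 and Ncf4 fell by 2.07 and 1.95 on the log2 scale. Lcn2, which binds bacterial iron carriers and is also made by epithelium, had a WT mean of 0.184 ± 0.0891 RPKM and a DTR mean of 3.47 ± 2.18 RPKM (SD, 3 libraries each), a log2 difference of 4.11 that was 1.80 with a pseudocount of 1 RPKM. Its WT mean was under the expression filter, so the 1 higher call of this list supports nothing. Rac2, Ncf1 and Ncf4 each lost their call without WT replicate 1, 2 or 3, and Lcn2 without WT replicate 1 or 3. The 5 lower calls were 2 without DTR replicate 2 and 1 when DTR replicate 3 was left out.

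Complement genes other than C1q had 1 of 21 tested genes lower and 0 higher (median -0.07). With 3 libraries per group this does not show that the rest were level. The proteases that join C1q in the C1 complex did not pass. C1ra had a WT mean of 2.99 ± 0.453 RPKM and a DTR mean of 2.78 ± 0.169 RPKM, and C1s1 means of 4.59 ± 0.540 and 3.46 ± 0.298 RPKM (SD, 3 libraries each), with limma adjusted p = 0.698 and 0.109. The lower gene was Itgax, a chain of complement receptor CR4 and a dendritic cell marker, which fell by 2.26 on the log2 scale (SE 0.50; limma adjusted p = 0.0326) and lost its call without WT replicate 1, 2 or 3.

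Of 22 lysosome and phagosome genes, the compartment of Cd68, 4 rose and 0 fell (median 0.11). Lgmn, a cysteine protease of lysosomes, was at 30.5, 30.4 and 32.6 RPKM in WT and 84.7, 155 and 80.6 RPKM in DTR. It rose by 1.71 on the log2 scale (SE 0.26; limma adjusted p = 0.0149). Lipa, the lysosomal acid lipase, rose by 0.79, the cholesterol exporter Npc1 by 1.35 and the cathepsin gene Ctsh by 0.48. These genes are expressed in many cell types, none of the 4 calls held without WT replicate 1, 2 or 3, and 6 genes rose without DTR replicate 1.

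Haemoglobin and haem clearance, the pathway of the CD163 protein, had 1 of 12 tested genes higher and 2 lower (median -0.14). Hp, which encodes the haptoglobin that CD163 takes up with haemoglobin, stood at 1.54, 0.102 and 0.296 RPKM in WT and 2.63, 78.2 and 3.25 RPKM in DTR. It did not pass (limma adjusted p = 0.0802), and DTR replicate 2, the library with the most Adipoq, lay far above the rest. Hmox1, the haem oxygenase that breaks haem down, was at 2.93, 2.38 and 1.78 RPKM in WT and 8.07, 48.6 and 211 RPKM in DTR. It rose by 4.23 on the log2 scale (SE 1.09; limma adjusted p = 0.0433), with a wide spread in DTR, and lost the call without any 1 library except DTR replicate 1. Nfe2l2, which encodes the oxidative stress factor NRF2, fell by 0.86 on the log2 scale, and the other lower gene was Lrp1, the receptor for haem bound to haemopexin. Both calls were lost without WT replicate 1, 2 or 3, and the count was 1 without DTR replicate 3. Red blood cell markers had 2 of 4 tested genes called lower in DTR (the globin genes Hbb-bs and Hbb-bt). Their summed level was 76.0 to 107 RPKM in WT and 7.09 to 44.3 RPKM in DTR. The count of 2 was 0 without WT replicate 1, 2 or 3 or DTR replicate 3, and 4 without DTR replicate 2. The part of blood content in the Cd163 level was not tested.

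Genes that glucocorticoids are known to induce in human monocytes, as they do CD163, had 6 of 10 tested genes higher and 0 lower, with a median log2 difference of 1.85. Zbtb16, a zinc finger factor, stood at 0.0973, 0.111 and 0.165 RPKM in WT and 9.18, 13.9 and 9.98 RPKM in DTR, a log2 difference of 6.47 (SE 0.29). Like Cd163, it was above the expression filter through its DTR libraries alone, so its call among the 6 supports nothing. The difference was 3.40 with a pseudocount of 1 RPKM. Fkbp5, which encodes a co-chaperone that binds glucocorticoid receptors, was at 0.870, 0.984 and 2.97 RPKM in WT and 77.3, 58.7 and 60.1 RPKM in DTR and rose by 5.57 (SE 0.46; limma adjusted p = 0.00496). Per1, a clock gene, rose by 2.68 and Il1r2, the decoy receptor of interleukin-1, by 1.78 on the log2 scale. The call of Fkbp5 held in every setting, and those of Per1 and Il1r2 were lost without WT replicate 1, 2 or 3. These genes respond in many cell types, so their levels in whole tissue are not levels in macrophages.

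Some markers of several other cell types were also called lower in DTR. Over all tested genes 9.54% were called higher and 8.74% lower. All marker lists were chosen with earlier results of these data known, so nothing is read from their counts against these shares. The part of other cell types in the differences above was not tested. Of 10 genes that mark all leukocytes, 8 fell and 0 rose, and their summed level was 79.4 to 122 RPKM in WT and 28.3 to 43.8 RPKM in DTR. Dendritic cell markers had 5 of 7 tested genes lower, with sums of 34.2 to 37.6 and 7.65 to 13.3 RPKM. T cell markers had 5 of 9 lower, with sums of 35.6 to 55.2 and 6.18 to 16.7 RPKM, and natural killer and innate lymphocyte markers 4 of 6, with sums of 237 to 374 and 86.4 to 134 RPKM. Of the markers of B and plasma cells, 2 of 8 fell (Ighm and Derl3), and of those of mast cells and eosinophils 1 of 5 (Siglecf). Monocyte markers had 0 of 5 tested genes called in limma, 1 at an unadjusted p under 0.05 (Hp) and 0 with voom on reads, with sums of 1283 to 1707 and 1279 to 1510 RPKM that come almost all from Plac8, a gene of the epithelium as well. Neutrophil markers had 1 gene higher (S100a8) and 1 lower (Mmp9) of 5, with sums of 2.61 to 3.86 and 3.80 to 9.69 RPKM. Leukocyte calls numbered 1, 0 and 0 without WT replicate 1, 2 or 3 in turn, dendritic and natural killer cell calls 1 each time and T cell calls 0 each time. Neutrophil calls were 0 in both directions without WT replicate 1, 2 or 3, and that of S100a8 was also lost without DTR replicate 2 or 3. The B and plasma cell count was 1 without WT replicate 1 and 0 without WT replicate 2 or 3 or DTR replicate 2 or 3. S100a8, Siglecf, Prf1 (natural killer list), Cd209a and Ccl22 (both in the dendritic cell list) were above the expression filter through 1 group alone. Their calls are in the counts above and support nothing. Of the leukocyte calls, 8 and 7 were left without DTR replicate 2 or 3. Tyrobp, Hcst, Rac2 and the leukocyte markers are expressed by several of these cell types, and the share of each cell type was not tested.

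**Figure D5:**
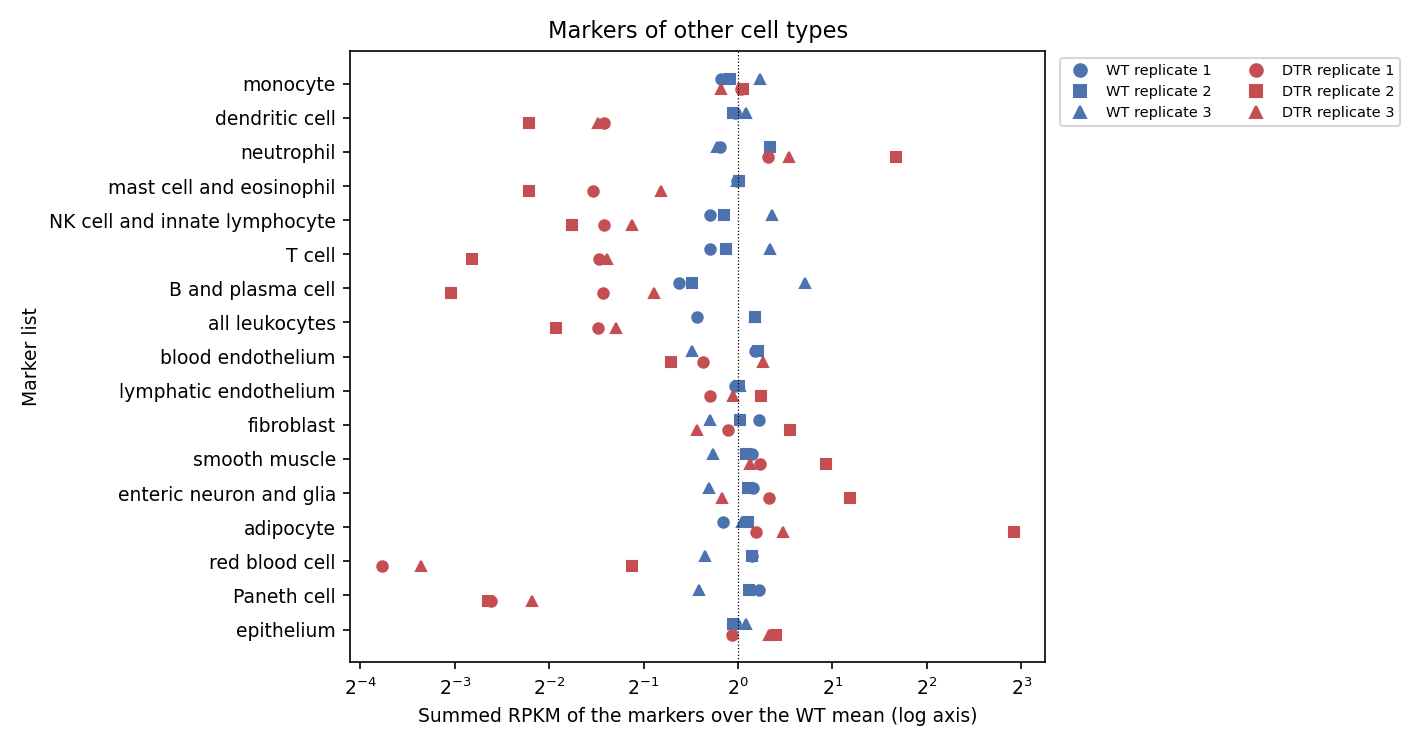
Summed RPKM of the markers of 17 cell types in each library, divided by the WT mean of that sum, on a log axis, blue for WT and red for DTR. The DTR points of dendritic cells, lymphocytes, all leukocytes, red blood cells and Paneth cells lie left of WT, those of endothelium and fibroblasts scatter around it, and DTR replicate 2 is far right for adipocytes.

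Several marker lists of the surrounding tissue held no call, which with 3 libraries per group does not show that they were level. Of the tested markers of blood endothelium (10), fibroblasts (8), smooth muscle (8), enteric neurons and glia (5) and adipocytes (6), 0 were called in either direction in limma. At an unadjusted p under 0.05 these lists had 1 (Tek), 1 (Col3a1), 1 (Actg2), 0 and 2 genes (Cidec and Lipe) in that order, and voom on reads called 1 gene of blood endothelium lower and 0 of the others. Adipocyte markers summed to 155 to 186 RPKM in WT and 198 to 1312 RPKM in DTR. Every DTR library lay above every WT library, with the top value in DTR replicate 2. Paneth cell markers, which include Lyz1, had 7 of 9 genes lower, at least 6 whichever library was left out, and sums of 2542 to 3962 and 541 to 747 RPKM. The 7 include Mptx2, which was above the expression filter through WT alone, so its call supports nothing. Epithelial markers, which check the tissue, had 1 of 8 genes higher (Krt18) and 1 lower (Vil1), with sums of 4642 to 5121 RPKM in WT and 4607 to 6366 RPKM in DTR. Both epithelial calls were lost without WT replicate 1, 2 or 3, and that of Vil1 also without DTR replicate 3.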

How the data were processed

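RNA of whole small intestine was purified with Trizol and an RNeasy kit and sequenced by standard Illumina procedures, per the labels' protocols. The authors deposited log2 RPKM values and, per library, a read total, a normalization factor (a ratio that rescales the total) and further totals. Per the submitters' processing notes the tools were STAR, Subread, featureCounts, edgeR, FastQC and MultiQC and the build mm10. The sources used here give neither versions nor strand setting. Columns were matched by title, since the samples titled WT1 and WT2 share 1 description. Taking the values off the log scale, with a prior count of 0.25, gave whole reads for 100% of values within 1e-06. These reads give the read numbers and 1 alternative fit.

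A filter at a mean log2 RPKM of -2 left 15563 genes, which were compared between 3 WT and 3 DTR libraries with limma 3.58.1 in R 4.3.3 (variance trend, two-sided, Benjamini-Hochberg at 0.05). The 10 genes and all lists were chosen with earlier results of these data known. Named are the 10 genes, Lgr5, Xist, Lyz1, in each macrophage list up to 4 called genes per direction with the smallest p, ligands and partners of the 10 genes, and the genes most correlated with Cd163 or Csf1r. Adipoq, Plac8, Hmgxb3 and the markers of other cell types were chosen after their values were seen. Gene positions are 1-based, from GENCODE M21, where 55394 of 55487 gene IDs matched. No 2 replicates looked like 1 library deposited again in a chi-square test of their reads. A few genes within this rule were left out of the text. The test was checked on simulated data. Alternatives are given at the end.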

Additional observations from a re-analysis of the deposited data

How the results depend on the processing

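Counts of calls depended on the libraries and the filter. Over all tested genes 2845 were called (1485 higher, 1360 lower in DTR); without a filter on low values 828 were called (352 higher, 476 lower), and leaving out 1 library gave 152 to 5605 calls (higher 76 to 2861, lower 76 to 2744), lowest without WT replicate 1 and highest without DTR replicate 1. Leaving out WT replicate 1 and DTR replicate 2 together, a setting chosen after seeing the data, gave 152 calls, 58 higher and 94 lower, so that 38.2% were higher against 52.2% in the full set. Of the macrophage list genes 15 were higher and 36 lower; without a filter these were 3 and 3, leaving out 1 library gave 2 to 22 and 1 to 44, and the joint setting gave 3 and 4. Replicate numbers did not pair the libraries (correlations of same-numbered deviations -0.011, -0.0024 and 0.165; WT replicate 3 alone correlated best with its own number). A replicate block, the number as a term in the fit, called 1161 genes (544 higher, 617 lower) and 11 lower list genes. The Cd163 difference was 2.23 with a pseudocount of 0.1, 0.77 with a pseudocount of 1 and 3.37 after quantile normalization, 2.75 to 3.16 with 1 library left out, and Cd163 was not tested with the filter at 0. Adgre1 was at -0.87 with a pseudocount of 1. With 1 library left out, Csf1r ran from -0.85 to -0.28, Adgre1 from -1.58 to -1.10, Cd68 from -0.45 to -0.26, Mrc1 from -0.11 to 0.15, C1qa from -0.0092 to 0.09 and C1qc from -0.05 to 0.05. The cause of these changes was not tested. With a pseudocount of 1, the differences of 18 of the 43 tested genes named by the rule were smaller by more than 1.5 times, beside those given above Xist (4.41), Csf1 (-0.83), Flt3l (-0.75), Spi1 (-0.51), Clec7a (-0.82), Msr1 (-0.48), Cd209b (-0.75), Itgax (-1.46), Hp (2.80), Ncf1 (-1.26) and Ncf4 (-0.99), and Ccl22 was at -2.65 with a pseudocount of 0.1. Of 43 tested genes named by the rule, 40 were called, 37 of them lost the call in at least 1 setting and all 43 kept their direction. In WT, Cd163 rests on 32 to 51 reads per library.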
